A study of Homo sapiens with 9 samples.

Results

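The genes described here are NFE2L2, which encodes the transcription factor NRF2, and 8 genes of NRF2-linked defence against oxidants and reactive chemicals: NQO1, HMOX1, GCLC, GCLM, TXNRD1, SRXN1, AKR1B10 and AKR1C1. They were taken as a list of symbols, and each was read from its brightest probe set annotated to that symbol alone. All 9 passed the filter on dim probe sets, among 13056 genes tested. A probe set is a group of short oligonucleotides on the array that reports 1 transcript region.

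The arrays measured RNA of HepG2, a human hepatocellular carcinoma line that keeps many hepatocyte functions. The 9 arrays form 3 groups of 3, labelled knockdown1, knockdown2 and control. Both knockdown groups are described as siRNA double knockdowns of HNF4alpha and HNF4gamma, nuclear receptors that drive hepatocyte genes. What sets knockdown1 apart from knockdown2, and which treatment the control cells got, is not stated in the labels, nor is a time point or dose. Nothing states that the arrays of a group come from separate cultures, so p-values here reflect array-to-array spread only, which may be technical. Both comparisons with control use the same 3 control arrays.

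NRF2 is a basic leucine zipper factor that is held low in unstressed cells because KEAP1 passes it to a ubiquitin ligase. When oxidants or electrophiles modify KEAP1, NRF2 builds up, pairs with a small MAF protein and binds antioxidant response elements near its target genes. The targets make glutathione, run the thioredoxin system and detoxify quinones, heme and reactive carbonyls. The liver uses this programme against drugs and dietary toxicants, and it is often switched on in hepatocellular carcinoma.

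Of the HNF4 targets of the siRNAs, no probe set was annotated to HNF4A alone, so its level was not analysed here. HNF4G was dim, at scaled signals of 44.9 to 47.9 in control, 14.4 to 23.5 in knockdown1 and 24.4 to 41.9 in knockdown2. On the log2 scale it was at -1.28 (SE 0.28, limma adjusted p 0.000538) in knockdown1 relative to control and -0.56 (SE 0.28, limma adjusted p 0.141) in knockdown2. Of 15 hepatocyte markers, 14 were tested, and their summed scaled signal was 60248.2 to 73072.6 in control, 50587.5 to 61414.5 in knockdown1 and 55032.3 to 59578.9 in knockdown2. In knockdown1, 6 of them fell and 0 rose, and in knockdown2, 5 fell and 0 rose. Over all tested genes, 19.0% were lower and 14.3% higher in knockdown1, and 13.9% and 13.7% in knockdown2. Among the markers that fell were TF, RBP4, APOA1, APOH and TTR, all secreted plasma proteins. At an unadjusted limma p under 0.05, 0 and 1 of the 14 were higher, and with the values as deposited 2 rose in knockdown2. The TTR call in knockdown1 ended without control replicate 3 or knockdown1 replicate 1 or 2 (limma adjusted p 0.0801 to 0.123). ALB and AFP were at log2 differences of 0.05 and -0.15 in knockdown1 and -0.17 and -0.06 in knockdown2, and neither passed the test. Of the markers of other cell types, 6 of 8 for fibroblasts and stellate cells, 2 of 7 for endothelium and 2 of 8 for leukocytes passed the filter. The fibroblast and stellate sum was 491.9 to 553.5 in control, 811.8 to 1041.0 in knockdown1 and 802.9 to 1009.2 in knockdown2. That sum follows ACTA2, an actin of contractile cells, which rose by 1.05 (limma adjusted p 2.52e-06) and 0.98 (limma adjusted p 1.01e-05), while COL1A1, COL1A2, PDGFRB and THY1 did not pass in either comparison. The endothelial sum reached 66.8 at most in control, 93.9 in knockdown1 and 98.7 in knockdown2, and its lowest values in the knockdowns were 72.7 and 78.7. The leukocyte sum was 2942.7 to 3913.3, 2697.5 to 3416.5 and 3339.6 to 4196.8. Nearly all of the leukocyte sum is LYZ, which did not pass in either comparison, and PTPRC was below the filter. Dim markers that passed by limma were DCN at -1.19 (adjusted p 0.0389) and CD14 at -2.80 (adjusted p 0.0175) in knockdown1, CD14 at -2.53 (adjusted p 0.0383) in knockdown2, and PECAM1 at 0.49 and 0.69 (adjusted p 0.0351 and 0.00402). All but the PECAM1 value in knockdown2 lost their call without single arrays, and with the mean over probe sets PECAM1 was at -0.42 (adjusted p 0.133) in knockdown1 and 0.47 (adjusted p 0.106) in knockdown2. The part of these marker shifts in the results on the members was not tested. The markers were read only to check the labelled cell line, HepG2, and the labels name no other cell type. In bulk RNA, fewer cells of a type and less RNA per cell cannot be told apart.

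RefSeq promoter windows of the GRCh38.p14 build, 300 bases from 250 before to 50 after a transcript's start, were available for 7 of the 9 members, 9 windows in all. HMOX1 and AKR1B10 had no entry. The antioxidant response element core TGACNNNGC, searched on both strands, was present in 3 of the 9 windows, 1 of GCLM and both of TXNRD1. The share was 13.3% among all 35116 promoter windows of that length and 14.9% among those of the tested genes. The HNF4-specific element core CAAAGTCCA was present in 0 of the 9 windows and in 0.384% of all windows. A match describes letters only, and elements farther from the start lie outside these windows. The first 260 bases of 4 windows are shown 5′ to 3′ on the gene's strand. GCLC and GCLM are shown because they encode the paired subunits of 1 enzyme. The TXNRD1 windows are shown because this gene differed most between the knockdowns among the members. Capitals mark a match to the antioxidant response element core, and the GCLC stretch has none.
GCLC, chr6:53545092-53545351, minus strand: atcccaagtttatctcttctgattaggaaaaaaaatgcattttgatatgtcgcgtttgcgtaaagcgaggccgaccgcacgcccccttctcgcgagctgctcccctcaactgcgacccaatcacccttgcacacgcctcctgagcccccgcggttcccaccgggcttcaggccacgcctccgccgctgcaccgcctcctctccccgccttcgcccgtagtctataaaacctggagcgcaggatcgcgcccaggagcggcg
GCLM, chr1:93909421-93909680, minus strand: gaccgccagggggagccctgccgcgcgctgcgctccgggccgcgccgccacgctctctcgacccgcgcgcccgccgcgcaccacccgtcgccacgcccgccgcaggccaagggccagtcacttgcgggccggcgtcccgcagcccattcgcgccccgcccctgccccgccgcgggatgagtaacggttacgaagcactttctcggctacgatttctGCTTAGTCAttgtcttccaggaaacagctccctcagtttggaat
TXNRD1, chr12:104215529-104215788, plus strand: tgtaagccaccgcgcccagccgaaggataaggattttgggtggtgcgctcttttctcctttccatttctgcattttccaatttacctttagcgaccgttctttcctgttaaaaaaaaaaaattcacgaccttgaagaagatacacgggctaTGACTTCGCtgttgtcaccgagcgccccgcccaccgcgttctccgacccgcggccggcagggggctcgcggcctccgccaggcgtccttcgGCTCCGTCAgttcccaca
TXNRD1, chr12:104286782-104287041, plus strand: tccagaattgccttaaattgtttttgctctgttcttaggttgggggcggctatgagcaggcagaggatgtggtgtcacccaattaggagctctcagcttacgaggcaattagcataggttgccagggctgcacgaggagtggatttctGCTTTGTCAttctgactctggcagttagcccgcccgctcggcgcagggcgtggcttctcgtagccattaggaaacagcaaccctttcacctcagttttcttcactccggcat
Positions count from the start to the first base of a match. In GCLM the match was at -34 on the opposite strand. The upstream TXNRD1 window held a match on each strand, at -99 and -8, and the downstream window, which lies within the gene, held 1 at -102 on the opposite strand.

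Against control, the members were called lower more often than higher, and the calls differed between the knockdowns. In knockdown1, 5 of the 9 were called lower (NFE2L2, NQO1, HMOX1, SRXN1 and AKR1B10), 1 higher (GCLC) and 3 were not called. Over all tested genes, 19.0% were called lower and 14.3% higher in that comparison. In knockdown2, 4 were called lower (NFE2L2, TXNRD1, SRXN1 and AKR1B10), 1 higher (GCLC) and 4 were not called, against 13.9% of all genes lower and 13.7% higher. A call is a limma adjusted p under 0.05, two-sided, over all 13056 genes. The members were chosen with earlier results of these data known. Their counts in any comparison therefore cannot be tested against the shares over all genes, which are given for context. The median log2 difference of the 9 was -0.37 in knockdown1 and -0.33 in knockdown2, while that of all genes was -0.01 and 0.01. For the mean of both knockdowns, 6 members were called lower and 1 higher, with 17.9% and 14.7% of all genes. Both the number and the split of calls over all genes depended on the scaling of the arrays. With the values as deposited, calls rose from 4351 to 5733 in knockdown1 and from 3608 to 4882 in knockdown2. Knockdown1 had 1866 genes higher and 2485 lower than control after scaling to a common median, and 3105 and 2628 with the values as deposited.

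The knockdowns also differed from each other. Of the 9 members, 4 were lower in knockdown1 than in knockdown2 (NQO1, HMOX1, GCLC and GCLM), 2 were higher (TXNRD1 and AKR1B10) and 3 were not called. Over all genes, 16.1% were lower and 10.5% higher. That split again moved with scaling, from 1368 higher and 2105 lower to 2803 and 2104 with the values as deposited, and the median of all genes moved from -0.03 to 0.08.

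**Figure D1:**
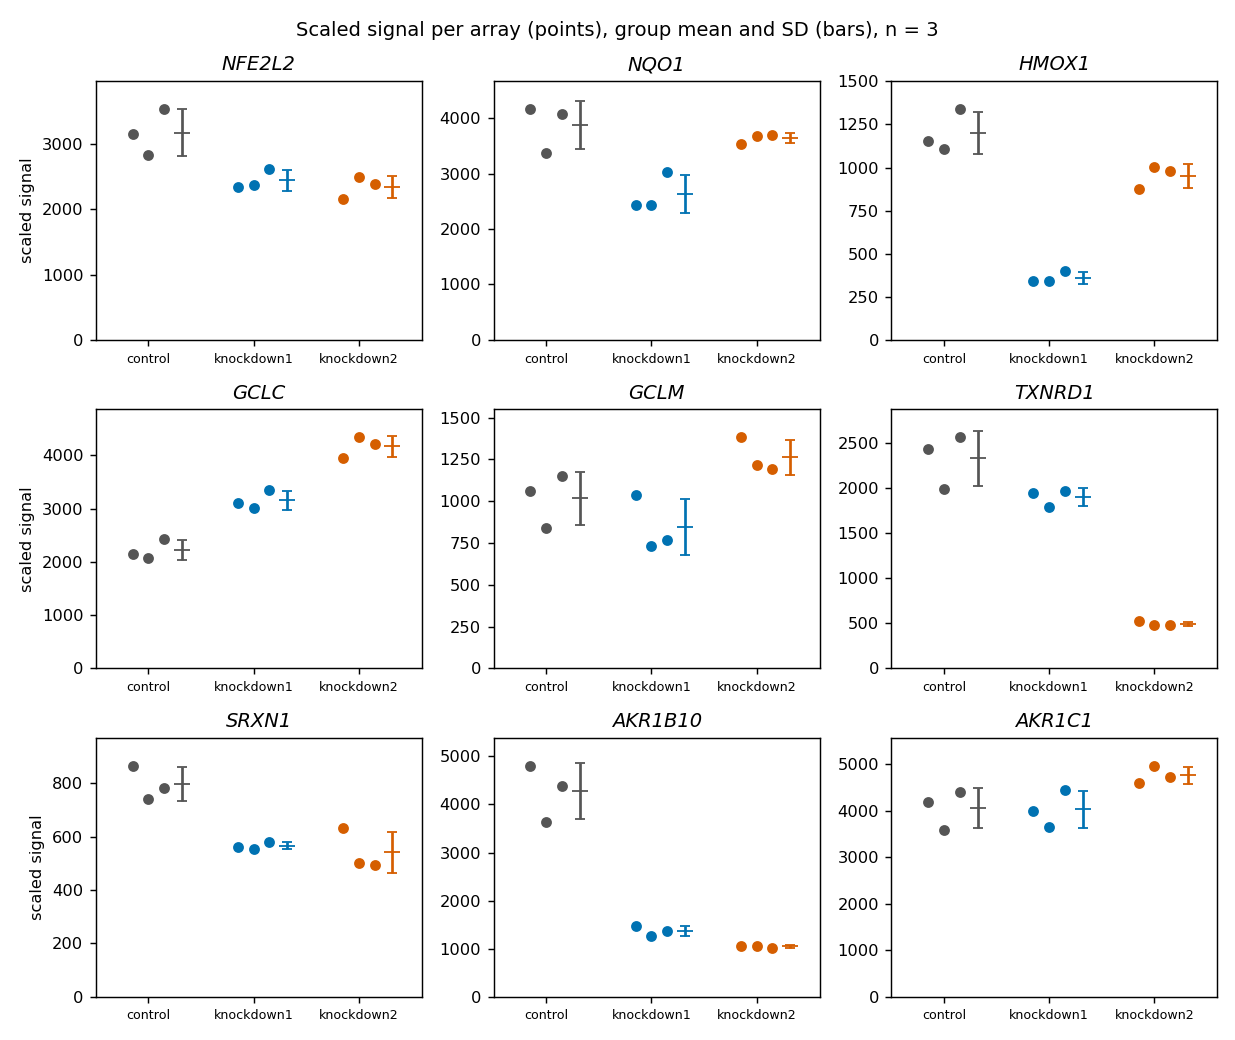
Scaled array signal of each member (linear axis from 0, arbitrary units) in the 3 control, 3 knockdown1 and 3 knockdown2 arrays, with points for arrays and bars for the group mean and SD. HMOX1 was lowest in knockdown1 (339.9 to 397.3) and TXNRD1 in knockdown2 (477.3 to 521.5), and AKR1B10 was below control in both groups.

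NFE2L2 (chr2:177230303-177264727, probe set 201146_at) is the regulator of the group. Gene coordinates of all members are those of RefSeq on GRCh38.p14, and each probe set reads part of the gene's transcript. Its scaled signal was 3151.5, 2828.2 and 3537.4 in the control arrays, 2334.0, 2368.2 and 2621.5 in knockdown1, and 2162.5, 2485.9 and 2385.2 in knockdown2. All 6 knockdown arrays lay below all 3 controls, and the knockdown groups overlapped each other. NFE2L2 mRNA fell by 0.37 (SE 0.13, limma adjusted p 0.0227) in knockdown1 and in knockdown2 fell by 0.43 (SE 0.13, limma adjusted p 0.0104), log2 differences that equal 1.30-fold and 1.35-fold. The knockdowns did not differ by the test, with a difference of 0.06 and a 95% interval of -0.20 to 0.32. With the values as deposited the difference passed at 0.18 (limma adjusted p 0.0328), and with quantile normalization at 0.24 (limma adjusted p 0.00231). Under the median scaling the knockdown1 call is near the threshold. It ended at a limma adjusted p of 0.0750 without control replicate 1 and 0.0655 without control replicate 3. Without knockdown1 replicate 1 or 2 it ended at 0.0905 and 0.0731, and it also ended with no filter or no variance trend. With the values as deposited the knockdown1 call held at -0.29 (limma adjusted p 0.00152), with an SE of 0.06 against 0.13. It held with quantile normalization as well. The knockdown2 call ended at 0.0819 without knockdown2 replicate 1. A dimmer probe set of NFE2L2, 1567013_at, was at -0.50 (SE 0.15, limma adjusted p 0.0178) and -0.82 (SE 0.15, limma adjusted p 0.000453). These are mRNA levels, and NRF2 is controlled mainly through the stability of the protein, which the arrays do not measure.

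GCLC and GCLM encode the catalytic and the modifier subunit of glutamate-cysteine ligase, the first and rate-limiting enzyme of glutathione synthesis. Under the median scaling, GCLC was the one member called higher in both knockdowns. GCLM did not pass in either comparison with control. The subunits thus had different calls against the same controls, though the difference between the subunits was not tested.

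GCLC (chr6:53497341-53545101, probe set 202923_s_at) had scaled signals of 2154.9, 2076.7 and 2426.3 in control, 3102.5, 3011.7 and 3341.9 in knockdown1, and 3957.1, 4338.5 and 4217.8 in knockdown2. The 3 groups did not overlap and were ordered control, knockdown1, knockdown2. GCLC rose by 0.51 (SE 0.12, limma adjusted p 0.00152) in knockdown1, 1.42-fold, and by 0.91 (SE 0.12, limma adjusted p 1.25e-06) in knockdown2, 1.88-fold. The step between the knockdowns was -0.40 for knockdown1 minus knockdown2 (SE 0.12, limma adjusted p 0.0128), and this call ended, at adjusted p of 0.0513 to 0.0808, without knockdown1 replicate 1 or 2 or knockdown2 replicate 2 or 3. Both further GCLC probe sets were higher as well. The 202922_at values were 0.57 (limma adjusted p 0.00169) and 1.22 (limma adjusted p 5.71e-07). The dim 1555330_at gave 0.48 (limma adjusted p 0.0699) and 1.37 (limma adjusted p 2.30e-05).

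GCLM (chr1:93885199-93909430, probe set 203925_at) had scaled signals of 1061.5, 841.6 and 1149.1 in control, 1037.8, 730.6 and 770.1 in knockdown1, and 1382.8, 1213.7 and 1189.8 in knockdown2. Knockdown1 overlapped control, and knockdown2 lay above all other arrays. The log2 difference was -0.27 (SE 0.15, limma adjusted p 0.181) in knockdown1 and 0.32 (SE 0.15, limma adjusted p 0.123) in knockdown2. Knockdown1 was lower than knockdown2 by a difference of -0.59 (SE 0.15, limma adjusted p 0.00401), 1.51-fold. The mean of the knockdowns against control was 0.02, with a 95% interval of -0.25 to 0.29, and averages values of opposite sign. Both further probe sets passed in knockdown2, 234986_at at 0.42 (limma adjusted p 0.0437) and 236140_at at 0.65 (limma adjusted p 0.0145). With the mean over the probe sets, GCLM was called in knockdown2 at 0.46 (limma adjusted p 0.0306), and without control replicate 3 at 0.41 (adjusted p 0.0358). In knockdown1 it was called without control replicate 2, at -0.40 (adjusted p 0.0386).

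TXNRD1 encodes cytosolic thioredoxin reductase, the selenoprotein that keeps thioredoxin reduced with NADPH. SRXN1 encodes sulfiredoxin, which repairs overoxidised peroxiredoxins. TXNRD1 fell steeply in knockdown2, while SRXN1 fell in both knockdowns.

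TXNRD1 (chr12:104215779-104350307, probe set 201266_at) had scaled signals of 2436.9, 1986.4 and 2563.9 in control, 1946.9, 1788.1 and 1970.3 in knockdown1, and 521.5, 482.6 and 477.3 in knockdown2. The knockdown2 arrays lay far below the rest, and the knockdown1 arrays lay just below the controls. In knockdown2 TXNRD1 fell by 2.23 (log2, with an SE of 0.13 and a limma adjusted p of 6.16e-13), 4.68-fold, the largest change of any member against control. In knockdown1 the difference was -0.29 (SE 0.13, limma adjusted p 0.104), and it passed with the values as deposited at -0.20 (adjusted p 0.0286) and without control replicate 2 at -0.40 (adjusted p 0.0151). Knockdown1 minus knockdown2 was 1.94 (SE 0.13, limma adjusted p 8.58e-12), 3.84-fold higher in knockdown1. The other TXNRD1 probe set was below the filter in every array and gives no check.

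SRXN1 (chr20:646615-653200, probe set 225252_at) had scaled signals of 866.6, 741.7 and 784.7 in control, 563.0, 555.9 and 580.3 in knockdown1, and 631.5, 503.0 and 493.4 in knockdown2. All knockdown arrays were below the controls and the knockdown groups overlapped. SRXN1 fell by 0.49 (SE 0.14, limma adjusted p 0.00749) in knockdown1, 1.40-fold, and in knockdown2 fell by 0.56 (SE 0.14, limma adjusted p 0.00315), 1.48-fold. Knockdown1 minus knockdown2 was 0.07, with a 95% interval of -0.22 to 0.36. The knockdown1 call ended without control replicate 1, at -0.43 (adjusted p 0.0599). SRXN1 has 1 probe set.

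NQO1 encodes the quinone reductase that is the standard readout of NRF2 activity, and HMOX1 encodes the inducible heme oxygenase that degrades heme to biliverdin, iron and carbon monoxide. Both fell in knockdown1 and were not called in knockdown2, and for both genes the knockdowns differed by the direct test.

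NQO1 (chr16:69709401-69726560, probe set 210519_s_at) had scaled signals of 4168.4, 3379.4 and 4071.9 in control, 2437.5, 2436.2 and 3031.2 in knockdown1, and 3537.1, 3683.5 and 3699.5 in knockdown2. Knockdown1 lay below every other array, and knockdown2 lay within the range of the controls. NQO1 fell by 0.56 (SE 0.13, limma adjusted p 0.00105) in knockdown1, 1.47-fold. In knockdown2 the difference was -0.08, with a 95% interval of -0.35 to 0.18 (limma adjusted p 0.691). Knockdown1 minus knockdown2 gave -0.47 (SE 0.13, limma adjusted p 0.00597). Both further probe sets fell in knockdown1, 201467_s_at by 0.73 (limma adjusted p 0.000128) and 201468_s_at by 0.58 (limma adjusted p 0.0107), and were at -0.12 and -0.17 in knockdown2, where neither passed. The mean of both knockdowns was called at -0.32 (limma adjusted p 0.0261), and that call ended without any 1 of 7 of the 9 arrays, all but control replicate 2 and knockdown1 replicate 3, at adjusted p of 0.0512 to 0.177.

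HMOX1 (chr22:35381096-35394207, probe set 203665_at) had scaled signals of 1152.5, 1106.4 and 1341.0 in control, 339.9, 341.6 and 397.3 in knockdown1, and 873.3, 1004.4 and 981.3 in knockdown2. Knockdown1 was far below the other groups, and the knockdown2 arrays lay below the controls without overlap. HMOX1 fell by 1.73 (SE 0.14, limma adjusted p 8.01e-11) in knockdown1, 3.32-fold. In knockdown2 the difference was -0.33 (SE 0.14, limma adjusted p 0.0784). That value was called with the values as deposited at -0.36 (adjusted p 0.00133), with quantile normalization at -0.36 (adjusted p 0.00135) and without control replicate 2 at -0.39 (adjusted p 0.0368). Knockdown1 was 2.65-fold lower than knockdown2, at -1.40 (SE 0.14, limma adjusted p 6.94e-09). HMOX1 has 1 probe set.

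AKR1B10 and AKR1C1 encode aldo-keto reductases, which reduce aldehydes and ketones with NADPH. AKR1B10 also reduces retinal and is often raised in hepatocellular carcinoma, while AKR1C1 inactivates progesterone. AKR1B10 fell strongly in both knockdowns, and under the median scaling AKR1C1 was not called in any of the 4 comparisons.

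AKR1B10 (chr7:134527567-134541412, probe set 206561_s_at) had scaled signals of 4804.5, 3642.7 and 4377.8 in control, 1476.7, 1270.6 and 1371.0 in knockdown1, and 1064.9, 1065.3 and 1017.1 in knockdown2. No knockdown array came near the lowest control, and knockdown2 lay below knockdown1. AKR1B10 fell by 1.63 (SE 0.13, limma adjusted p 9.54e-11) in knockdown1, 3.10-fold, and in knockdown2 fell by 2.02 (SE 0.13, limma adjusted p 3.37e-12), 4.05-fold. Knockdown1 minus knockdown2 was 0.39 (SE 0.13, limma adjusted p 0.0293). It was the least stable of the AKR1B10 calls and ended without knockdown1 replicate 1 or without any 1 of the knockdown2 arrays, at adjusted p of 0.0796 to 0.136.

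AKR1C1 (chr10:4963415-4983283, probe set 204151_x_at) had scaled signals of 4184.1, 3583.5 and 4414.8 in control, 4005.3, 3643.8 and 4439.9 in knockdown1, and 4603.2, 4971.3 and 4721.4 in knockdown2. Knockdown1 overlapped control and the knockdown2 arrays were the highest. The difference from control was -0.01 (95% interval -0.26 to 0.24) in knockdown1. It turned to 0.08 with the values as deposited (limma adjusted p 0.270) and to 0.12 with quantile normalization, where it was called (limma adjusted p 0.0435). In knockdown2 it was 0.24 (95% interval -0.02 to 0.49, limma adjusted p 0.165), and it passed at 0.20 under both of those scalings (adjusted p 0.00775 and 0.00286). These intervals do not show that AKR1C1 stayed the same. The mean of both knockdowns passed at 0.14 with the values as deposited and 0.16 with quantile normalization (limma adjusted p 0.0245 and 0.00416). AKR1C1 and AKR1C2 are near-identical in sequence, so this probe set may read both. The further probe set 216594_x_at was at -0.10 and 0.23, and neither value passed.

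**Figure D2:**
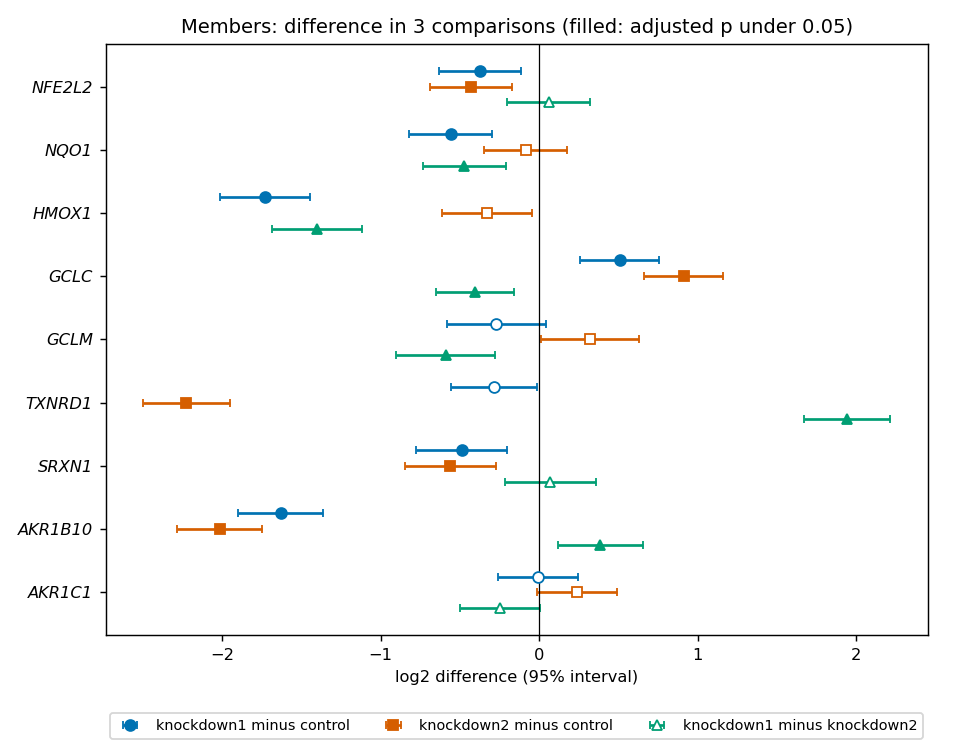
Log2 difference of each member with its 95% interval (horizontal axis) in knockdown1 minus control (circles), knockdown2 minus control (squares) and knockdown1 minus knockdown2 (triangles), filled where the limma adjusted p was under 0.05. GCLC is the one member to the right of 0 and filled in both comparisons with control, and TXNRD1 (1.94) and HMOX1 (-1.40) differ most between the knockdowns.

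The members have 22 probe sets annotated to 1 symbol alone, of which 13 were not the brightest of their gene. Of those 13, 9 passed the filter and 4 did not, and a further 2 probe sets are shared with another gene and were not tested. The shared AKR1C1 and AKR1C2 probe set 1555854_at was at 68.2 to 98.7 in control, 89.3 to 131.5 in knockdown1 and 155.6 to 178.1 in knockdown2. The shared NFE2L2 and CSNK2A1 probe set 1567014_s_at was at 132.5 to 149.1, 133.3 to 187.9 and 125.4 to 137.1. Where a member was called in a comparison with control, each of its further probe sets annotated to it alone and above the filter had the same sign, as described for NFE2L2, NQO1 and GCLC. The sign differed for the dim GCLM probe set 236140_at in knockdown1, at 0.16 (limma adjusted p 0.585), and for the dim AKR1C1 probe set 1555856_s_at in knockdown2, at -0.01 (limma adjusted p 0.989). HMOX1, TXNRD1, SRXN1 and AKR1B10 have no second probe set above the filter.

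**Figure D3:**
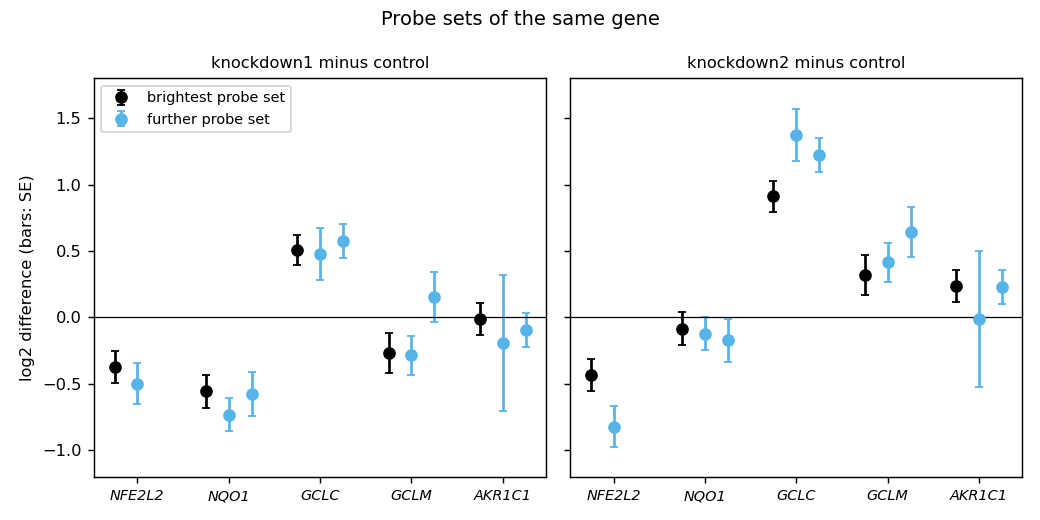
Log2 difference from control (vertical axis, bars are SE) for each probe set above the filter of the 5 members with more than 1, knockdown1 on the left and knockdown2 on the right, with the brightest probe set in black and further ones in blue. All 3 GCLC probe sets lie above 0 in both panels, and all 3 NQO1 probe sets lie lower in knockdown1 than in knockdown2.

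The genes whose log2 values followed each member most closely over the 9 arrays are given as a description. The arrays fall into 3 groups, so the 9 points are not independent of each other. HMOX1 was followed by CDCA3 (Pearson r 0.997) and CCNB1 (0.996), both genes of mitosis. TXNRD1 was followed by the sialyltransferase gene ST6GAL1 (0.998) and by GLRX5 (0.995), a mitochondrial glutaredoxin of iron-sulfur cluster assembly. AKR1B10 was followed by the galectin gene LGALS2 (0.997) and DDC (0.997), which encodes aromatic amino acid decarboxylase, and GCLC by NABP1 (0.997) and SVIL (0.996). NFE2L2 was nearest to MPC1 (0.985), a subunit of the mitochondrial pyruvate carrier, and AGT (0.983), angiotensinogen. SRXN1 was nearest to the bile acid 12-alpha-hydroxylase gene CYP8B1 (0.981) and SLC26A8 (0.975). NQO1 was nearest to PARP1 (0.990) and LSM3 (0.989), and GCLM to ZMYND11 (0.961) and UBR1 (0.960).

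The lists that follow are given beside the shares over all tested genes, 19.0% lower and 14.3% higher in knockdown1 and 13.9% lower and 13.7% higher in knockdown2. The lists were chosen with earlier results of these data known, so the shares are context and not a test. The list of NRF2 control, which also holds the NRF2 relatives NFE2L1 and NFE2L3, moved in both directions. Of 15 tested, 1 rose and 4 fell in knockdown1, and 5 rose and 4 fell in knockdown2. The 1 that rose in knockdown1 was the relative NFE2L1, at 0.75 (limma adjusted p 0.000315), and it was at 0.58 (limma adjusted p 0.00507) in knockdown2. With the values as deposited and with quantile normalization, 4 rose in knockdown1. KEAP1, the sensor that marks NRF2 for degradation, was at -0.13 (limma adjusted p 0.571) and 0.02 (limma adjusted p 0.949). In knockdown2, MAFF, a small MAF partner, rose by 1.33 (SE 0.18, limma adjusted p 1.27e-06), and SQSTM1, the autophagy receptor p62 that sequesters KEAP1, rose by 0.90 (SE 0.13, limma adjusted p 5.20e-06). RXRA, a nuclear receptor that can bind NRF2, fell by 0.80 (limma adjusted p 0.000739) in knockdown1 and fell by 0.81 (limma adjusted p 0.000917) in knockdown2. NFE2L3, an NRF2 relative, fell by 0.80 (limma adjusted p 0.000478) in knockdown1 and was at -0.58 (limma adjusted p 0.0105) in knockdown2. BTRC, the ubiquitin ligase adaptor of the KEAP1-independent route, fell by 0.87 (limma adjusted p 0.000139) in knockdown1, but its mean over probe sets was at -0.19 (adjusted p 0.578). In knockdown2 BTRC was at -0.50 (limma adjusted p 0.0242), and at -0.02 (adjusted p 0.966) with the mean over probe sets. That call also ended without control replicate 1 or 3 or knockdown2 replicate 2 or 3 (adjusted p 0.0879 to 0.0966).

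Other NRF2 targets included more genes called lower than higher, as did all tested genes in knockdown1 under the median scaling. Of 26 tested, 9 fell and 3 rose in knockdown1, and 8 fell and 0 rose in knockdown2, where 12 were lower and 0 higher at an unadjusted limma p under 0.05. Their median log2 difference was -0.28 and -0.23. GSR, glutathione reductase, fell by 1.44 (SE 0.17, limma adjusted p 7.01e-08) in knockdown1 and was at -0.37 in knockdown2, where it did not pass. CBR1, a carbonyl reductase, rose by 0.96 (limma adjusted p 3.30e-05) in knockdown1 and fell by 0.83 (limma adjusted p 0.000266) in knockdown2. GPX2, a glutathione peroxidase, fell by 0.92 (limma adjusted p 5.49e-06) in knockdown2. In knockdown1 it was at -0.38 (limma adjusted p 0.0296), and leaving out control replicate 1 or knockdown1 replicate 1 or 2 ended that call (adjusted p 0.0649 to 0.199). The dim SLC6A9 fell by 1.45 (limma adjusted p 0.0269) in knockdown1 and the dim CYP4F11 fell by 3.09 (limma adjusted p 0.0246) in knockdown2. The SLC6A9 call ended without control replicate 1 or 2 or knockdown1 replicate 2 (adjusted p 0.0723 to 0.135), and the CYP4F11 call without any 1 control array (adjusted p 0.0762 to 0.144).

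Of 7 other aldo-keto reductases, 3 fell and 0 rose in knockdown1, and 1 fell and 0 rose in knockdown2. At an unadjusted limma p under 0.05 the number higher was 0 in both comparisons. With quantile normalization, 2 fell and 1 rose in knockdown2, and with the values as deposited 1 rose. AKR1D1, the delta4-3-oxosteroid 5-beta-reductase of bile acid synthesis, fell by 1.66 (SE 0.32, limma adjusted p 0.000169) in knockdown1 and in knockdown2 fell by 2.34 (SE 0.32, limma adjusted p 2.26e-06). The aflatoxin aldehyde reductases are AKR7A3, which fell by 0.60 (limma adjusted p 0.00991) in knockdown1, and AKR7A2, which fell by 0.57 (limma adjusted p 0.0226). The AKR7A3 call ended without control replicate 1 (adjusted p 0.0517) or knockdown1 replicate 1 (0.0587), and the AKR7A2 call without control replicate 3 (0.173, value -0.30) or knockdown1 replicate 2 (0.166, value -0.37).

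Genes of glutathione supply and use, apart from GCLC and GCLM, also included more called lower than higher. Of 22 tested, 9 fell and 3 rose in knockdown1, and 7 fell and 1 rose in knockdown2. With the values as deposited or quantile normalization, 5 rose in knockdown1 and 3 in knockdown2, where 11 fell. In knockdown2 GLRX5 fell by 2.79 (SE 0.15, limma adjusted p 1.36e-13). In knockdown1 it was at -0.52 (limma adjusted p 0.00922), a call that ended without knockdown1 replicate 2 (adjusted p 0.0766). GPX3, the secreted glutathione peroxidase, fell by 1.02 (limma adjusted p 8.54e-07) in knockdown2 and was at -0.47 (limma adjusted p 0.00615) in knockdown1. The glyoxalases, which clear methylglyoxal with glutathione, are HAGH and GLO1. HAGH fell by 1.15 (limma adjusted p 1.59e-06) in knockdown1 and fell by 0.71 (limma adjusted p 0.00112) in knockdown2, and GLO1 fell by 0.83 (limma adjusted p 9.04e-06) in knockdown1. GPX7 fell by 1.08 (limma adjusted p 2.10e-05) in knockdown1. It was at -0.60 (limma adjusted p 0.0115) in knockdown2, and leaving out control replicate 1 or knockdown2 replicate 1 ended that call (adjusted p 0.0739 and 0.0548).

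In the thioredoxin and peroxiredoxin system, beyond TXNRD1 and SRXN1, 6 of 18 tested genes rose and 3 fell in knockdown1, and 3 rose and 4 fell in knockdown2. TXNIP, which binds and blocks thioredoxin, rose by 0.96 (SE 0.16, limma adjusted p 3.49e-05) in knockdown1 and by 1.53 (SE 0.16, limma adjusted p 3.66e-08) in knockdown2. The methionine sulfoxide reductases split. MSRB1 fell by 0.98 (limma adjusted p 4.10e-06) in knockdown1 and fell by 1.09 (limma adjusted p 1.22e-06) in knockdown2, and MSRB3 rose by 0.89 (limma adjusted p 0.000524) in knockdown1 and by 0.80 (limma adjusted p 0.00195) in knockdown2. The dim MSRB2 fell by 2.05 (limma adjusted p 0.0184) in knockdown2, a call that ended without control replicate 1 or 3 or knockdown2 replicate 3 (adjusted p 0.0576 to 0.0832).

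Among 11 genes of superoxide and peroxide removal, 3 fell and 0 rose in each comparison, and with the values as deposited and with quantile normalization 1 rose in knockdown1. At an unadjusted limma p under 0.05, 1 was higher in knockdown1 and 0 in knockdown2. With quantile normalization, 5 fell in knockdown2. CAT, catalase, fell by 0.65 (limma adjusted p 0.000311) in knockdown1 and fell by 1.11 (limma adjusted p 2.50e-07) in knockdown2. NQO2, a quinone reductase related to NQO1, fell by 0.71 (limma adjusted p 0.000425) in knockdown1 and fell by 0.94 (limma adjusted p 1.77e-05) in knockdown2. HMOX2, the constitutive heme oxygenase, fell by 0.62 (limma adjusted p 0.00174) in knockdown2 and was at 0.35 (limma adjusted p 0.0642) in knockdown1. SELENOP fell by 0.33 (limma adjusted p 0.0432) in knockdown1, a call that ended in 7 of 9 fits that left out 1 array (all but control replicate 2 and knockdown1 replicate 3, adjusted p 0.0594 to 0.180).

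Of 12 oxidant sources, 3 rose and 3 fell in knockdown1, and 1 rose and 4 fell in knockdown2, where 3 rose with the values as deposited or quantile normalization. AOX1, aldehyde oxidase, fell by 1.09 (limma adjusted p 4.19e-06) in knockdown1 and fell by 0.86 (limma adjusted p 0.000151) in knockdown2. POR, the electron donor of microsomal cytochrome P450 enzymes, fell by 0.88 (limma adjusted p 4.89e-05) in knockdown2 and was at -0.55 (limma adjusted p 0.00495) in knockdown1. The monoamine oxidase MAOB fell by 0.85 (limma adjusted p 0.000141) in knockdown2. CYB5R1 and ERO1A, an oxidase of disulfide formation, rose by 0.69 (limma adjusted p 0.000884) and by 0.62 (limma adjusted p 0.00300) in knockdown1.

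**Figure D4:**
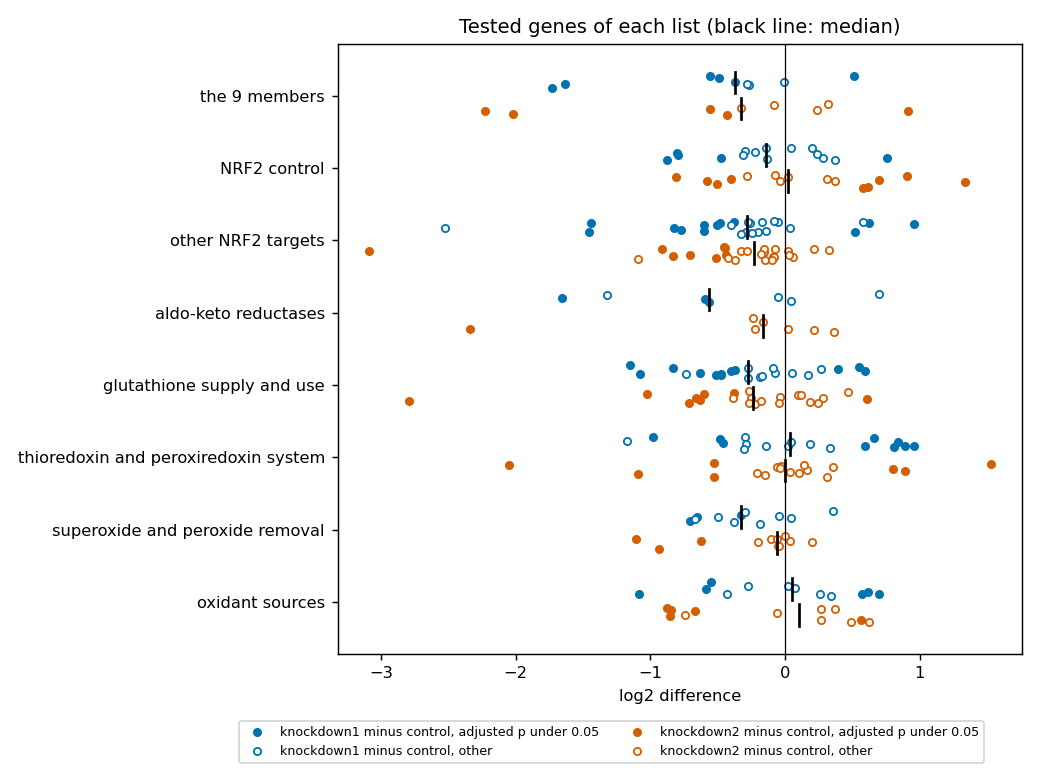
Log2 difference from control (horizontal axis) of the tested genes of each list, knockdown1 in blue and knockdown2 in orange, filled where the limma adjusted p was under 0.05, with a black line at each list's median and points spread vertically only for visibility. The medians of the 9 members (-0.37 and -0.33) and of the other NRF2 targets (-0.28 and -0.23) lie left of 0, and each list holds genes on both sides of 0.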

How the data were processed

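RNA of 9 HepG2 samples was hybridised to oligonucleotide arrays after oligo(dT) priming and biotin labelling, per the labels' protocols. The authors made the deposited intensities, 1 linear value per probe set, with MAS5, per the submitters' processing notes, and the MAS5 version is not given there. Each array's mean, trimmed by 2% at each end, was 100.0. Intensities have no count behind them, and 3 arrays per group limit the precision. Array medians ran from 12.3 to 15.7, a ratio of 1.28. A ratio over 1.2 called for scaling, so each array was scaled to a median of 14.1 (factors 0.898 to 1.15), and log2(signal + 1.41) was taken, a pseudocount of 0.1 of that median. Fold changes are on this scale, which understates those of dim genes. The SE of members was larger after this scaling than with the values as deposited. In knockdown1 against control it was 0.14 against 0.07 for HMOX1 and 0.12 against 0.06 for GCLC. For NQO1 it was 0.13 against 0.06, and for GCLM 0.15 against 0.12. Calls near the threshold thus depend on the scaling as well as on the array number.

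Of 54675 probe sets, 41091 had 1 gene symbol in the platform annotation, 1801 several and 11721 none, and 62 were controls. Probe sets whose signal exceeded the array median in 3 or more of the 9 arrays were kept (24565 with 1 symbol), and the brightest represented each of 13056 genes. Further probe sets were tested in a second fit over the 24565.

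All 9 arrays entered 1 fit in limma 3.58.1, R 4.3.3 (lmFit, contrasts.fit, eBayes with trend). Tests were two-sided and Benjamini-Hochberg adjusted, with a threshold of 0.05. The fit was tested on simulated data. Named are the 9 members, the 3 called genes with the largest change of each other list in each comparison with control, and the 2 genes most correlated with each called member. The uncalled KEAP1, the called NFE2L1 and GSK3B, and ALB and other uncalled markers were named after their values were seen. Members and lists were chosen with earlier results of these data known. Alternatives were the values as deposited, quantile normalization, 2 other pseudocounts, no filter and a stricter one, the mean over probe sets, no variance trend, the replicate block and leaving out each array. Arrays of a group shared at most 1.37% identical values and each counted as 1 replicate.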

Additional observations from a re-analysis of the deposited data

Results flagged for a closer look

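For 6 of the 9 members, the effects of the 2 knockdowns against their shared control differed by a direct test. That test was knockdown1 minus knockdown2 in limma, with 3 arrays per group. Over all 13056 tested genes, 3473 were called in that comparison, 16.1% lower and 10.5% higher in knockdown1. The differences of the members were -0.47 for NQO1, -1.40 for HMOX1, -0.40 for GCLC, -0.59 for GCLM, 1.94 for TXNRD1 and 0.39 for AKR1B10. Among these 6, GCLM stood out because its values against control had opposite signs, although neither passed the test there.

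Of the 40 genes named from the other lists for a large called change against control, 15 differed in the same way. That choice used the same arrays, so the 15 cannot be read against the share over all genes. The genes named for likeness to a member were not compared here. Lower in knockdown1 were MAFF at -1.13, GSR at -1.07, GLO1 at -0.95, SQSTM1 at -0.66, TXNIP at -0.57, GPX7 at -0.48 and HAGH at -0.44. Higher in knockdown1 were GLRX5 at 2.27, CBR1 at 1.79, HMOX2 at 0.98, MAOB at 0.57, GPX3 at 0.55, GPX2 at 0.54, CAT at 0.46 and CYB5R1 at 0.43. Over the members and named genes called between the knockdowns, 4 had opposite signs against control: GCLM, CBR1, GLO1 and HMOX2. AKR1C1 also had opposite signs, at -0.01 in knockdown1 and 0.24 in knockdown2, but was not called between the knockdowns. Of the 4, CBR1 alone passed the limma threshold in both comparisons, higher in knockdown1 and lower in knockdown2. GSK3B of the NRF2 control list was not among the 40. It was at -0.48 (limma adjusted p 0.0102) in knockdown1 and 0.70 (limma adjusted p 0.000448) in knockdown2. Several of the smaller differences lose their call when single arrays are left out, among them HAGH, GPX7, CYB5R1, CAT and TXNIP. The GPX2 difference was at 0.13 (adjusted p 0.743) with the mean over probe sets.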

How the results depend on the processing

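Over 36 member differences (9 members in 4 comparisons), 303 of 324 values under alternatives other than leaving out an array kept their direction and their side of the threshold, 6 lost the call, 13 gained it and 2 turned sign. Leaving out 1 array gave 292, 21, 5 and 6 of 324. Members called higher in knockdown1 rose from 1 to 2 with quantile normalization, and members called lower ranged from 3 to 7 over fits without 1 array. Members called higher in knockdown2 rose from 1 to 2 with the values as deposited, quantile normalization, the mean over probe sets and the replicate block, and were 1 or 2 without 1 array. For the mean of both knockdowns they rose from 1 to 2 with the values as deposited and quantile normalization. Between the knockdowns, members called higher in knockdown1 dropped from 2 to 1 with no filter and with no variance trend, which ended the AKR1B10 call, and were 1 or 2 without 1 array. The NFE2L2 call in knockdown1 also ended with no filter (adjusted p 0.0632) and no variance trend (0.0642), and the NQO1 call for the mean of both knockdowns with no filter (0.0915) and no variance trend (0.0839).

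The values that turned sign were AKR1C1 in knockdown1, at 0.0777 as deposited and 0.12 with quantile normalization (adjusted p 0.0435) and from -0.10 to 0.06 without 1 array (above 0 without control replicate 1 or 3 or knockdown1 replicate 2), and GCLM for both knockdowns, at -0.11 to -0.01 without control replicate 2, knockdown1 replicate 1 or knockdown2 replicate 1. PECAM1 in knockdown1 turned to -0.42 with the mean over probe sets. The cause was not tested. Of 1432 values for the 40 genes named from the other lists, 1329 kept direction and call and 102 lost the call. Genes named for likeness to a member were not refitted.

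Same-numbered arrays of different groups deviated together at r of -0.03 to 0.13, and arrays with other numbers at -0.12 to 0.085. Of 9 arrays, 5 correlated best with their own number, which does not decide whether the arrays are paired. The labels name no pairing, so the numbers were not taken to pair the arrays, and the replicate block was fitted as an alternative. With the replicate block, calls over all genes rose from 4351 to 4996 in knockdown1 and from 3608 to 4265 in knockdown2. The replicate block added calls for HMOX1 (adjusted p 0.0279) and GCLM (0.0462) in knockdown2 and for TXNRD1 (0.0449) in knockdown1. It moved the lower calls in knockdown1 from 3 to 5 in the thioredoxin list and from 3 to 6 in the superoxide and peroxide list, and the higher calls among oxidant sources in knockdown2 from 1 to 3. Dim probe sets such as CD14, MSRB2 and CYP4F11 carry wide errors.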
